A study of Sus scrofa with 12 samples.

Results

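RNA of 8 genes of the chemokine system was examined in border zone and remote zone tissue from 6 pig hearts, namely the ligands CXCL8, CXCL10, CXCL12, CXCL14, CCL2, CCL5 and CCL19 and the receptor CXCR4. The genes were taken from a list of 10, of which 8 had a pig gene identifier in the symbol table and 7 had enough counts to be tested, out of 35682 gene identifiers and 13844 tested genes in all. CXCL16 and CX3CL1 were on the list and were not analysed here. The animals were female Yorkshire pigs, 10 to 12 weeks old, in which a balloon closed the left anterior descending artery for 60 min before reperfusion. From day 9 after this injury all were immunosuppressed, with daily prednisolone at 20 mg, daily tacrolimus at 0.75 mg per kg and daily mycophenolate mofetil at 500 mg. On day 14, vascular organoids of human endothelial progenitor and smooth muscle cells in fibrin glue, or fibrin glue alone, were placed on the heart, and tissue was taken 4 weeks later. The labels used here give region and animal number and not which animals received organoids, so the treatments were not compared. The border zone lay next to the infarct, the remote zone was taken from the posterior wall, and each animal gave 1 library of each. The sample titles name border or remote, while the extraction text in the labels names the mid-border zone for every library.

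Counts on genes summed to between 15130210 and 30526110 in the border libraries and to between 20091415 and 31618680 in the remote libraries. Mitochondrially encoded protein genes took 5.69 to 17.3% of the counts in border libraries and 13.6 to 33.5% in remote libraries, most in the 3622 remote library. Cardiomyocyte genes were abundant in every library: 11 marker genes, among them TNNT2 and MYL2, had a summed CPM (counts scaled to a TMM-normalised library size of 1000000) of 12606 to 72963 in border tissue and 58769 to 103416 in remote tissue. The 1022 border library had the lowest cardiomyocyte level and the highest level of fibroblast and matrix genes. The 3622 border library held counts for 52.3% of the 11724 genes that were at 0 in the other 11 libraries, with a median of 4 counts, while no other library exceeded 4.41%. In animal 3622 the order of the library names is also reversed between the regions compared with the other 5 animals, and the labels were used as given.

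Chemokines are small secreted proteins that guide leukocytes along gradients and act through G protein-coupled receptors. Some are induced by inflammation, such as CXCL8, which attracts neutrophils through CXCR1 and CXCR2, CCL2, which attracts monocytes through CCR2, CCL5, which attracts T cells and monocytes, and the interferon-inducible CXCL10, which binds CXCR3. Others are made constitutively, such as CXCL12, the ligand of CXCR4 and ACKR3, and CCL19, which binds CCR7 on dendritic cells and T cells. Atypical receptors (the ACKR family) bind chemokines without classical G protein signalling, and take up, transport or scavenge them. In the infarcted heart these genes are known for recruiting neutrophils, monocytes and lymphocytes in succession.

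In the RefSeq annotation of Sscrofa11.1, CXCL8 lies on chromosome 8 from 69932646 to 69935861 and CXCL10 on chromosome 8 from 71693641 to 71695948, each with 4 exons. CCL2 (40798109 to 40800013) and CCL5 (39652731 to 39659121) lie on chromosome 12 with 3 exons each. CXCL12 lies on chromosome 14 from 91516383 to 91543857, CXCL14 on chromosome 2 from 137803988 to 137813118, CCL19 on chromosome 10 from 32110366 to 32112529, and CXCR4 on chromosome 15 from 15663652 to 15666706. Because CXCL8 and CXCL10 are textbook targets of inflammatory transcription factors, the 250 bases before the annotated start of each are shown 5′ to 3′ on the gene's strand, at chr8:69932396-69932645 (plus strand) and chr8:71695949-71696198 (minus strand). Capitals mark matches, on either strand, to an NF-kappaB type motif (GGGA and CC with any 4 bases between them), an interferon-stimulated response element type motif (GAAA and GAAA with any 2 bases between them) or an AP-1 type motif (TGANTCA).
CXCL10: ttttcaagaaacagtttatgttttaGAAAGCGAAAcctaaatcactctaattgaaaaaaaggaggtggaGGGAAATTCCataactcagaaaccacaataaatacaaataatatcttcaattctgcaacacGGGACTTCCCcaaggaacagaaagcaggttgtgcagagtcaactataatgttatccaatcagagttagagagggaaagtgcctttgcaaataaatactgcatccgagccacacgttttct
CXCL8: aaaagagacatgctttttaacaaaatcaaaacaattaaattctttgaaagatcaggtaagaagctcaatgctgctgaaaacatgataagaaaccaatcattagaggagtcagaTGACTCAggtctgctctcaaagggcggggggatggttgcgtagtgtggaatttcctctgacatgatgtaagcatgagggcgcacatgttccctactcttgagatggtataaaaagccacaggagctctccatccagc
The CXCL10 window held GAAAGCGAAA at -225 to -216 and GGGAAATTCC and GGGACTTCCC at -181 to -172 and -120 to -111, counted from the annotated start. The CXCL8 window held TGACTCA at -137 to -131 and no match to the NF-kappaB or interferon type letters used here. A site with other letters would not be marked, so this does not show that CXCL8 lacks such a site. The windows before CXCL12 and CCL2 held none of the 3 motifs, which says only that these letters are absent there, and that before CXCL14 held 1 AP-1 type match. The window before CCL19, whose annotated model starts with the coding sequence, held 1 match of the interferon type, GAAAGTGAAA at -179 to -170. Of 19558 windows before protein-coding genes, 26.4% held the first motif, 3.0% the second and 5.26% the third. These matches describe the sequence and are not evidence of binding.

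Border zone and remote zone were compared first by edgeR's quasi-likelihood test with region as the only term. All 7 tested genes of the group had a positive log2 fold change, from 0.56 for CXCL12 to 3.70 for CXCL14, with a median of 1.16, against a median of 0.04 over all genes tested, of which 53.3% were positive. None of the 7 had an adjusted p under 0.05, which 2.06% of all tested genes reached as higher in border tissue and 0.0144% as lower. At an unadjusted p under 0.05, CXCL14, CCL5 and CCL19 passed, which is 3 of 7, against 17% of all tested genes in that direction. The DESeq2 Wald test, which gave CXCL14 no adjusted p, put 2 of the other 7 genes under 0.05, CXCL8 and CCL19, against 8.48% of the genes it tested as higher. The border zone exceeded the remote zone in 6 of 6 animals for 3 tested genes, CXCL10, CXCL14 and CCL2, a pattern found in 11.7% of all tested genes. For CXCL14 this rests on the scaling in animal 1322, with 33 counts in each region and a difference of 0.006 on the log2(CPM + 0.5) scale. For no member were the 6 border libraries all above the 6 remote libraries, as they were for 1.99% of the tested genes. In whole tissue, a difference in the number of cells of a type and a difference in RNA per cell cannot be told apart.

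**Figure D1:**
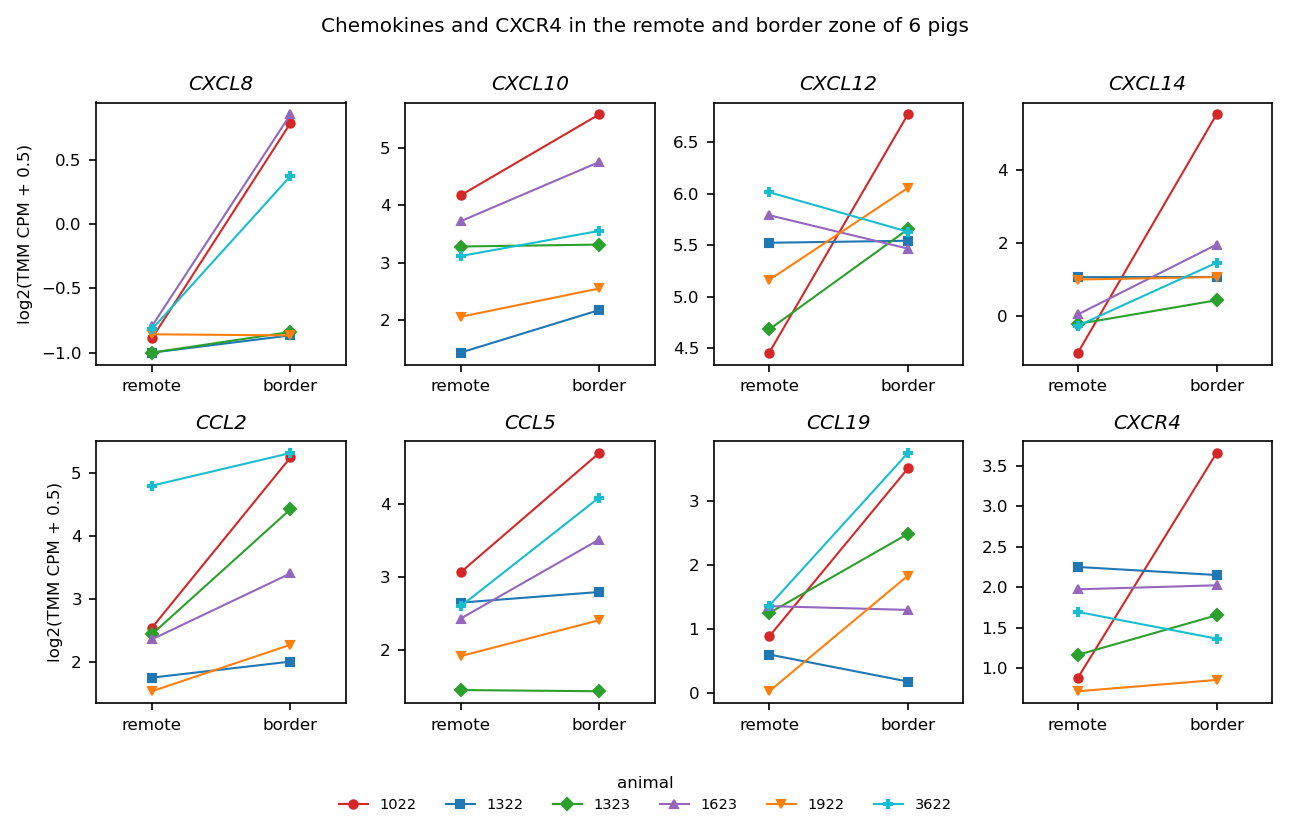
Log2(CPM + 0.5) of 7 chemokines and CXCR4, with 1 line for each of 6 animals from its remote library to its border library (y axes differ between panels). CXCL10 and CCL2 lines run upward in all 6 animals and nearly keep their order, while CXCL12 and CXCR4 lines cross and animal 1022 has the steepest slope.

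Among the inflammatory ligands, CXCL8 was close to absent. Its counts were 38 in the 1623 border library, 37 in that of 1022, 13 in that of 3622, 2 in that of 1323 and 1 in those of 1322 and 1922. In remote tissue no library had more than 2 counts, and the 6 together held 5 against 92 in border tissue. CXCL8 RNA was thus seen above a few counts in 3 border libraries. That of animal 3622 also held a few counts for many genes absent from the other libraries, and their part in its 13 CXCL8 counts was not tested. The mean within-animal difference in log2(CPM + 0.5) was 0.80 ± 0.79 (SD, n = 6 animals), positive in 5 of 6 (two-sided exact permutation test, p = 0.0625, where 6 pairs allow no p below 0.031). This mean depended on the pseudocount, with 1.64 at a pseudocount of 0.1 and 0.31 at 2. The DESeq2 Wald test gave an adjusted p = 0.0181. Its receptors CXCR1 and CXCR2 were not analysed here. Neutrophil markers were also scarce: the summed CPM of 6 neutrophil genes was 0.777 to 8.99 in border tissue and 1.18 to 2.57 in remote tissue, with the highest values in the border libraries of animals 1022, 1623 and 3622.

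CXCL10 had 3.99 to 47.8 CPM in border tissue (median 10.3) and 2.18 to 17.6 CPM in remote tissue (median 8.69). The regions overlapped widely. Animal 1022 had the highest CPM in both regions (47.8 and 17.6), followed by animal 1623 (26.6 and 12.7), and animal 1322 had the lowest in both (3.99 and 2.18). The Spearman correlation between the regions over the 6 animals was 0.94, given as a description. The border zone was higher in 6 of 6 animals, by 0.03 to 1.42 on the log2(CPM + 0.5) scale. The CXCL10 log2 fold change was 0.97 ± 0.61 (SE, adjusted p = 0.341) with region only and 0.74 (adjusted p = 0.082) with the animal as a block, neither past the threshold, and 0.65 without animal 1022. The genes whose log2 CPM followed CXCL10 most closely over the 12 libraries were GBP1 (r = 0.94), PCYOX1L (r = 0.93) and CXCL9 (r = 0.93), out of 11725 genes with a symbol. GBP1 is an interferon-inducible GTPase and CXCL9 an interferon-gamma-inducible ligand of CXCR3. CXCR3 itself had 2 to 36 counts in border tissue and 4 to 10 in remote tissue, and was under the filter.

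CCL2 had 3.51 to 39.2 CPM in border tissue (median 15.5) and 2.39 to 27.2 CPM in remote tissue (median 4.76). The 3622 remote library, with 27.2 CPM, stood far above the next remote library, with 5.31 CPM, and the border library of the same animal was the highest of all, so that the order of the animals was again nearly the same in both regions (Spearman correlation 0.94 over 6 animals). All 6 animals had more CCL2 in border tissue, by 0.25 to 2.7 on the log2(CPM + 0.5) scale, most in animals 1022 and 1323. By edgeR the log2 fold change was 1.30 ± 0.71 (SE, adjusted p = 0.266) and 1.30 with the block (adjusted p = 0.082). Without animal 3622 it was 1.92, and without animal 1022 it was 0.89, again without passing the threshold. NFKBIE, an inhibitor of NF-kappaB (r = 0.94), CDK9 (r = 0.92) and IRF1, an interferon-responsive transcription factor (r = 0.92), followed CCL2 most closely.

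CCL5 had 2.21 to 25.3 CPM in border tissue (median 8.66) and 2.24 to 7.84 CPM in remote tissue (median 5.22). It was higher in border tissue of 5 animals and level in animal 1323, with 2.21 and 2.24 CPM. The log2 fold change was 1.16 ± 0.49 (SE, adjusted p = 0.171, and 0.0939 under the block). MBOAT1 (r = 0.96), CASP9 (r = 0.95) and CHAF1B (r = 0.95) followed it most closely. The T and NK cell markers, 11 genes, had a summed CPM of 12.3 to 86.4 in border tissue and 12.0 to 23.1 in remote tissue, highest in the 1022 border library, where CCL5 was also highest. The part of these cells in the CCL5 values was not tested.

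CXCL12, which attracts and retains lymphocytes and progenitor cells, had 43.8 to 109 CPM in border tissue (median 49.5) and 21.5 to 64.3 CPM in remote tissue (median 40.5). Animal 1022 had the highest border zone value, 109 CPM, and the lowest remote zone value, 21.5 CPM. The other 5 border libraries lay between 43.8 and 66.2 CPM, and in animals 1623 and 3622 the remote zone was higher. Its log2 fold change was 0.56 ± 0.30 (SE, adjusted p = 0.257) and 0.18 without animal 1022. FSCN1, an actin-bundling protein (r = 0.92), COL15A1, a basement membrane collagen (r = 0.92), and TMEM44 (r = 0.92) followed it most closely over the 12 libraries, and without animal 1022 their r was 0.81 to 0.82. ACKR3, its scavenging receptor, had 9.20 to 30.1 CPM in border tissue and 8.76 to 18.3 CPM in remote tissue, with a log2 fold change of 0.43 ± 0.25 (SE, adjusted p = 0.293) and of 0.22 without animal 1022.

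CXCR4, the signalling receptor of CXCL12 on leukocytes and progenitor cells, had 1.31 to 12.1 CPM in border tissue (median 3.11) and 1.14 to 4.26 CPM in remote tissue (median 2.24). The 1022 border library held 47.2% of the border CPM summed over animals, and in the other 5 animals the regions differed by -0.33 to 0.49 on the log2(CPM + 0.5) scale. By edgeR the log2 fold change was 0.81 ± 0.51 (SE, adjusted p = 0.333) and 0.02 without animal 1022. SKAP2, an adaptor protein of leukocytes, was most like it (r = 0.93, and 0.87 over the 10 libraries of the other animals), followed by NHERF1 (r = 0.93) and FGFR3 (r = 0.92).

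CXCL14, a ligand made by fibroblasts and epithelia, had the largest log2 fold change of the 7 genes tested by edgeR, which it did not keep without animal 1022. It had 45.8 CPM (1387 counts) in the 1022 border library and 0.854 to 3.40 CPM in the other 5, against 0 to 1.60 CPM in remote tissue. That 1 library held 82.5% of the border CPM summed over animals, while the remote library of the same animal had 0 counts. In animals 1322 and 1922 the regions were level, at 1.61 and 1.60 CPM and at 1.60 and 1.51 CPM. The log2 fold change was 3.70 ± 1.11 (SE, adjusted p = 0.0824), 2.08 under the block (adjusted p = 0.231) and 1.16 without animal 1022. Its closest companions were LGALS8 (r = 0.95, and 0.94 without animal 1022), ITGA8 (r = 0.93, and 0.73 without it) and PLEKHG5 (r = 0.92, and 0.73 without it).

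CCL19, which guides CCR7-bearing cells to lymphoid tissue, had 0.633 to 12.9 CPM in border tissue (median 4.08) and 0.520 to 2.07 CPM in remote tissue (median 1.61). In 4 of the 6 animals, 3622, 1022, 1323 and 1922, CCL19 was higher in border tissue, by 1.23 to 2.62 on the log2(CPM + 0.5) scale, while animals 1623 and 1322 differed by -0.06 and -0.42. Its log2 fold change was 1.95 ± 0.60 (SE, adjusted p = 0.0885 by edgeR), and the DESeq2 Wald test gave 1.90 with an adjusted p = 0.0224. By edgeR it was 1.62 without animal 1022 and 1.65 without animal 3622. CCR7 had 4 to 66 counts in border tissue and 0 to 11 in remote tissue, higher in border tissue of 6 of 6 animals, with the 66 counts in the 3622 border library. That library also held a few counts for many genes absent from the other libraries. Their part in its CCR7, CXCR6 and IL6 counts was not tested. PRR7 (r = 0.94), APAF1 (r = 0.93) and MICALL2 (r = 0.93) followed CCL19 most closely. Within the group it was most like CCL2 (r = 0.85 over 12 libraries, and 0.81 without animal 1022). CCL21, the other ligand of CCR7, had 17.4 to 70.7 CPM in border tissue and 7.74 to 48.1 CPM in remote tissue (adjusted p = 0.396).

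Levels were compared between genes per kilobase of RefSeq exon. In border tissue the medians were 20.8 CPM per kilobase for CCL2, 13.5 for CCL19, 11.8 for CCL5, 9.12 for CXCL10, 7.44 for CXCL12, 2.93 for CXCR4, 1.13 for CXCL14 and 0.287 for CXCL8. In remote tissue CXCL10 was first with 7.65 CPM per kilobase, followed by CCL5 (7.14), CCL2 (6.40), CXCL12 (6.08), CCL19 (5.32), CXCR4 (2.11), CXCL14 (0.261) and CXCL8 (0.0308). The ranges of neighbours overlapped in both orders, except that all 6 remote zone levels of CXCR4 were above those of CXCL14. The models of CCL19 and CXCR4 hold the coding length only, which raises their values per kilobase. CXCL12 was divided by the 6.661 kilobases of exon of all 4 of its transcripts together, which lowers its value. Its median before division, 49.5 CPM in border tissue, was the highest of these genes. The counts were made on Ensembl genes, while the lengths are RefSeq's.

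**Figure D2:**
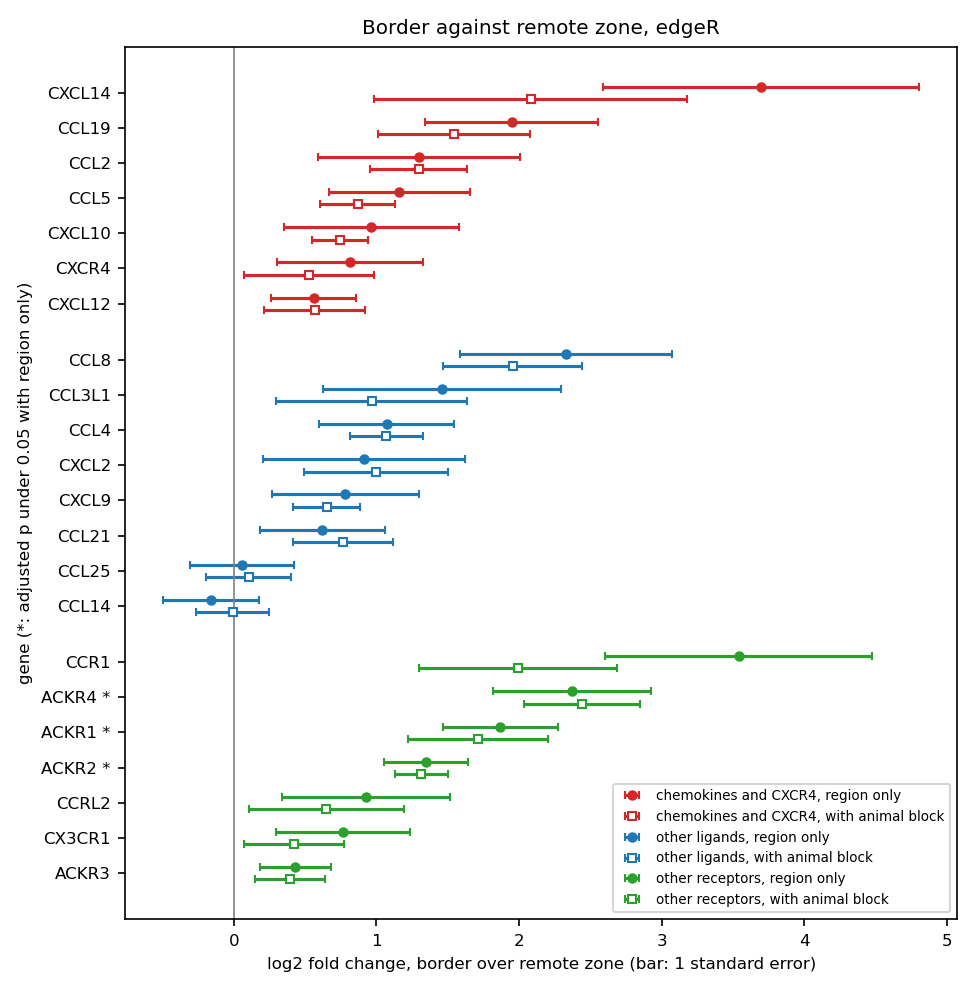
Log2 fold change of border over remote zone with 1 standard error for the tested chemokines and receptors shown, by edgeR with region only (filled circles) and with the animal as a block (open squares). All 7 genes described above lie to the right of 0, from 0.56 to 3.70, and the only starred genes are ACKR1, ACKR2 and ACKR4.

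Of 36 other ligands listed, 20 had an identifier and 8 were tested, 7 of them with a positive log2 fold change (median 0.85). None had an adjusted p under 0.05 by edgeR, and 2 of the 8 had an unadjusted p under 0.05, against 24.7% of all tested genes in either direction. CCL4, a monocyte attractant, was higher in 6 of 6 animals, with 1.07 to 4.40 CPM in border tissue and 0.416 to 2.61 CPM in remote tissue (log2 fold change 1.07 ± 0.47 SE, adjusted p = 0.183). CXCL9 was also higher in 6 of 6, with 4.47 to 28.4 CPM and 1.65 to 11.9 CPM (log2 fold change 0.78 ± 0.52 SE, adjusted p = 0.364, and 0.46 on the log2 scale without animal 1022). With the DESeq2 Wald test CCL8, a monocyte attractant, and CCL11, an eosinophil attractant, had adjusted p = 0.0257 and 0.0322, and both are named because of these values. They were 2 of the 13 listed ligands that this test gave an adjusted p, against 8.48% of all the genes it tested as higher. CCL8 had 0.341 to 8.80 CPM in border tissue and 0.362 to 2.07 CPM in remote tissue, and edgeR gave a log2 fold change of 2.33 ± 0.74 (SE) with an adjusted p = 0.0937. CCL11 had 0 counts in all 6 remote libraries and 31, 12, 11, 4, 0 and 0 counts in the border libraries of animals 1022, 3622, 1623, 1323, 1322 and 1922. Several of these ligands have close paralogs, such as CCL4 and CCL3L1, whose counts depend on how shared reads were assigned.

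The only listed receptors and ligands with an adjusted p under 0.05 by edgeR were 3 atypical receptors. The atypical receptor ACKR3 did not pass (log2 fold change 0.43, adjusted p = 0.293 by edgeR). Nor did the conventional receptor CCR1, with a larger log2 fold change (3.54, adjusted p = 0.0591 by edgeR). Whether atypical receptors differ from the others as a family was not tested. Of 22 other receptors listed, 19 had an identifier and 8 were tested, all with a positive log2 fold change (median 1.57), and 3 of these 8 had an adjusted p under 0.05, ACKR1, ACKR2 and ACKR4, against 2.06% of all tested genes. With the animal as a block 1 remained, ACKR2, where 0.289% of all tested genes passed as higher. The DESeq2 Wald test gave 15 of these receptors an adjusted p and 6 of them passed, against 8.48% of all the genes it tested as higher, among them CCR1, CCR7, ACKR1, ACKR2 and ACKR4.

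ACKR2, a scavenger of inflammatory CC chemokines such as CCL2 and CCL5, had 6.04 to 19.0 CPM in border tissue (median 9.01) and 2.77 to 5.94 CPM in remote tissue (median 3.62). The 2 sets of libraries did not overlap, as in 1.99% of all tested genes, and every animal had more in border tissue, by 0.85 to 1.66 on the log2(CPM + 0.5) scale. By edgeR the log2 fold change was 1.35 ± 0.30 (SE, adjusted p = 0.035, and 0.043 under the block). ACKR4, which takes up CCL19 and CCL21, had 0.428 to 2.08 CPM (7 to 63 counts) in border tissue and 0.0329 to 0.343 CPM (1 to 9 counts) in remote tissue, again without overlap. Here the log2 fold change was 2.37 ± 0.56 (SE, adjusted p = 0.0452, and 0.0564 under the block). ACKR1, which binds many inflammatory chemokines on venular endothelium and red cells, had 1.75 to 14.3 CPM in border tissue (median 9.93) and 1.54 to 3.34 CPM in remote tissue (median 2.46). It was lower in border tissue of animal 1322, with 1.75 against 3.34 CPM, and higher in the other 5. Its log2 fold change was 1.87 ± 0.40 (SE, adjusted p = 0.0338, and 0.0879 under the block). The endothelial list, 11 genes, had a summed CPM of 489.9 to 799.6 in border tissue and 341.3 to 785.2 in remote tissue and was higher in border tissue of 3 of 6 animals. Of the 11 genes 0 passed by edgeR and 1 was higher in the DESeq2 Wald test, against 8.48% of all the genes it tested. The erythroid list, 3 genes, had 3.09 to 14.3 and 2.86 to 24.7 CPM.

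These 3 calls depended on which animals were included. With 1 animal left out in turn, the adjusted p of ACKR2 was 0.0276 to 0.146 and under 0.05 in 2 of 6 fits, that of ACKR1 was 0.0133 to 0.156 and under 0.05 in 1 fit, and that of ACKR4 was 0.0479 to 0.129 and under 0.05 in 1 fit. The log2 fold changes stayed within 1.22 to 1.44, 1.66 to 2.18 and 2.10 to 2.60. No receptor passed without animal 1323, 1623, 1922 or 3622, where the number of genes past the threshold over all genes was also small (3, 0, 15 and 0).

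**Figure D3:**
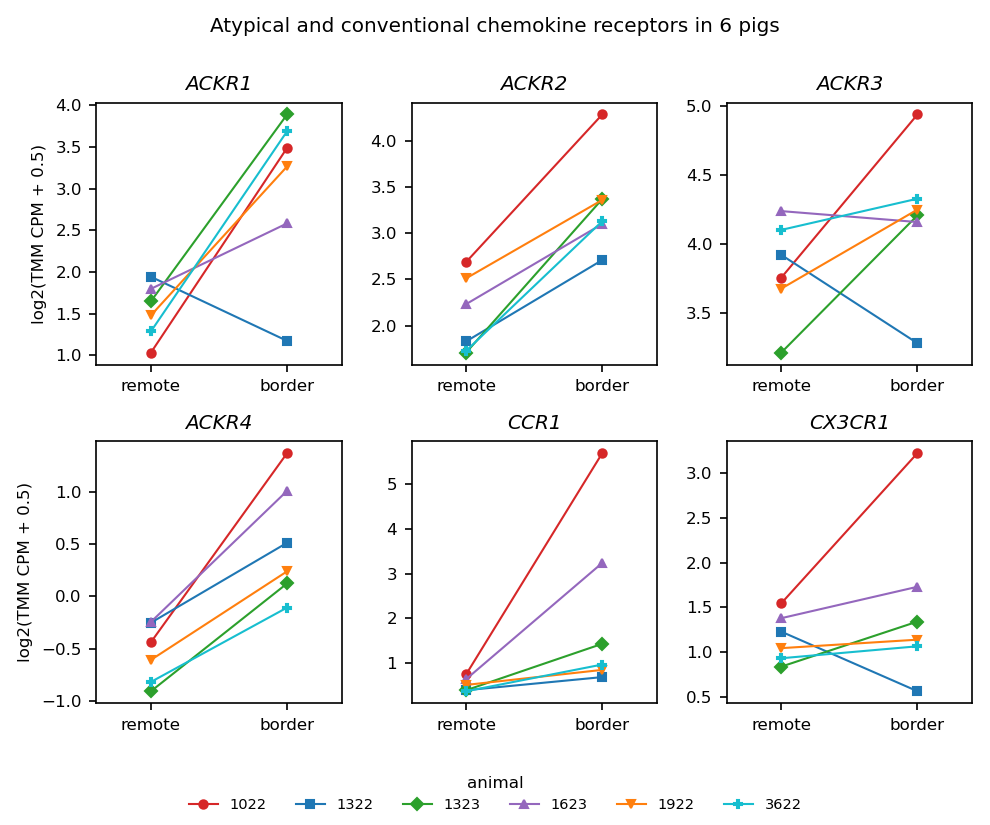
Log2(CPM + 0.5) of 4 atypical receptors and of CCR1 and CX3CR1, with 1 line for each of 6 animals from remote to border zone (y axes differ between panels). ACKR2 and ACKR4 lines run upward in all 6 animals and the regions do not overlap, ACKR1 falls in animal 1322 alone, and CCR1 is dominated by animal 1022 at 50.8 CPM.

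Of the conventional receptors, CCR1, a receptor for CCL5 on monocytes and neutrophils, had 50.8 CPM in the 1022 border library, 8.93 CPM in that of animal 1623 and 1.12 to 2.21 CPM in the other 4, against 0.802 to 1.19 CPM in remote tissue. It was higher in 6 of 6 animals. By edgeR its log2 fold change was 3.54 ± 0.94 (SE, adjusted p = 0.0591), 1.99 under the block (adjusted p = 0.115) and 1.75 without animal 1022, and the DESeq2 Wald test gave an adjusted p = 0.000729. CX3CR1, a receptor of monocytes and macrophages, had 0.974 to 8.86 CPM in border tissue and 1.28 to 2.42 CPM in remote tissue (log2 fold change 0.77 ± 0.47 SE, adjusted p = 0.327). The 1022 border library held 49.3% of its border CPM summed over animals, and without that animal the log2 fold change was 0.15 (adjusted p = 0.876 by edgeR). CXCR6 had 29 counts in the 3622 border library, 15 in that of 1022 and at most 8 in any other library. CCR2 was not analysed here.

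Among 9 measured genes that cut, shed or hold chemokines, 8 were tested and 2 rose, MMP2 and SDC1, against 2.06% of all tested genes, and none passed under the block. MMP2, a protease that can truncate CCL and CXCL ligands, had 158 to 1552 CPM in border tissue and 63.3 to 148.9 CPM in remote tissue, without overlap, as in 1.99% of all tested genes (log2 fold change 2.27 ± 0.49 SE, adjusted p = 0.0338, and 0.0895 under the block). SDC1, a heparan sulfate proteoglycan that binds chemokines, had 2.0 to 61.5 CPM and 0.572 to 1.94 CPM, also without overlap (log2 fold change 3.92 ± 0.84 SE, adjusted p = 0.0338, and 2.82 with an adjusted p = 0.0807 under the block). Without animal 1022 the log2 fold changes of MMP2 and SDC1 were 1.40 and 2.21, and each had an adjusted p under 0.05 in 2 of the 6 fits without 1 animal. MMP14 and SDC2 had log2 fold changes of 1.90 and 1.96 (adjusted p = 0.068 and 0.0591), of 1.24 and 1.35 under the block, and of 0.87 and 0.998 without animal 1022. MMP14 did not overlap between the regions either, with 53.2 to 588.3 CPM and 38.6 to 49.2 CPM. MMP9, a neutrophil and macrophage protease under the filter and named after its values were seen, had 16644 counts in the 1022 border library, 1349 in that of 1623 and 6 to 25 in the other 4, against 0 to 9 in the remote libraries. In animal 1922 its border CPM, 0.388, was below its remote CPM, 0.468. DPP4, the peptidase that inactivates CXCL12 and other ligands, was the one gene of this list with a negative log2 fold change. It had 15.8 to 56.5 CPM in border tissue and 40.9 to 70.8 CPM in remote tissue and was lower in 6 of 6 animals (log2 fold change -0.79 ± 0.29 SE, adjusted p = 0.124, and 0.0602 under the block).

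Cytokines and transcription factors that induce chemokines formed a further list. Of its 11 measured genes 8 were tested and 0 had an adjusted p under 0.05 by edgeR, with 3 of the 8 at an unadjusted p under 0.05, against 24.7% of all tested genes in either direction. TNF had 1 to 12 counts in border tissue and 0 to 2 in remote tissue, IFNG 0 to 4 and 0 to 3. IL6 had 40 counts in the 3622 border library, 20 in that of 1022, 18 in that of 1323 and 0 to 5 in the other 3, against 3 in all remote libraries together (adjusted p = 0.028 in the DESeq2 Wald test). TNFAIP3, an NF-kappaB target and inhibitor, was higher in 6 of 6 animals, with 5.41 to 18.7 CPM and 3.88 to 7.38 CPM (log2 fold change 0.90 ± 0.28 SE, adjusted p = 0.0904 by edgeR, and 0.0464 by the DESeq2 Wald test). The transcription factors RELA, NFKB1 and HIF1A were higher in 6 of 6 animals by small amounts, with log2 fold changes of 0.26, 0.31 and 0.34 (adjusted p = 0.275, 0.417 and 0.303). The interferon regulatory factors IRF8 and IRF1 had larger log2 fold changes, 1.14 and 0.76, in 5 of 6 animals (adjusted p = 0.184 and 0.194), and NFKBIA, another NF-kappaB target and inhibitor, had -0.16 and was lower in 4 of 6 (adjusted p = 0.674).

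Marker lists of cell types were summed in the same libraries. Of 11 tested fibroblast and matrix genes 9 had an adjusted p under 0.05, all higher, against 2.06% of all tested genes. Under the animal block 1 of the 11 passed, POSTN (adjusted p = 0.041 by edgeR), against 0.289% of all tested genes. The summed CPM of the list was 3261 to 70052 in border tissue and 1121 to 2780 in remote tissue. The macrophage list, 12 genes of which 11 were tested and 0 passed by edgeR (10 at an unadjusted p under 0.05, against 24.7% of all tested genes in either direction, and 5 higher in the DESeq2 Wald test, against 8.48%), had a summed CPM of 137.8 to 1561 in border tissue and 124.3 to 268.0 in remote tissue. It was higher in border tissue of 5 of 6 animals, the exception being animal 1322. In that animal CCL19, CXCR4, ACKR1, ACKR3 and CX3CR1 were also lower in border tissue, while CXCL10, CCL2, CCL5, CCR1, ACKR2 and ACKR4 were higher. The cardiomyocyte list was lower in border tissue of 6 of 6 animals. The B and plasma cell list (8 genes) had 6.53 to 39.4 and 5.17 to 7.29 CPM and was higher in border tissue of 6 of 6 animals. Of its 3 genes tested by edgeR 0 passed. In the DESeq2 Wald test 2 genes of this list were higher, against 8.48% of all the genes it tested. The dendritic cell list (5 genes, CCR7 and XCR1 among them) had 13.4 to 28.6 and 12.0 to 18.6 CPM and the lymphatic endothelial list (6 genes) 47.1 to 91.6 and 36.6 to 82.9 CPM. Of the 10 genes of the smooth muscle and pericyte list, all tested, 0 passed by edgeR, 7 had an unadjusted p under 0.05 (24.7% of all tested genes in either direction) and 4 passed as higher in the DESeq2 Wald test (8.48% of all the genes it tested). Their summed CPM was 8242 to 17079 and 8315 to 12649, most of it DES, which cardiomyocytes also express. The log2 fold changes of the 10 genes ran from -0.22 for RGS5 to 1.91 for ACTA2, 8 of them positive, and among border libraries the sum was lowest in that of animal 1022. The part of any of these cells in the chemokine values was not tested.

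**Figure D4:**
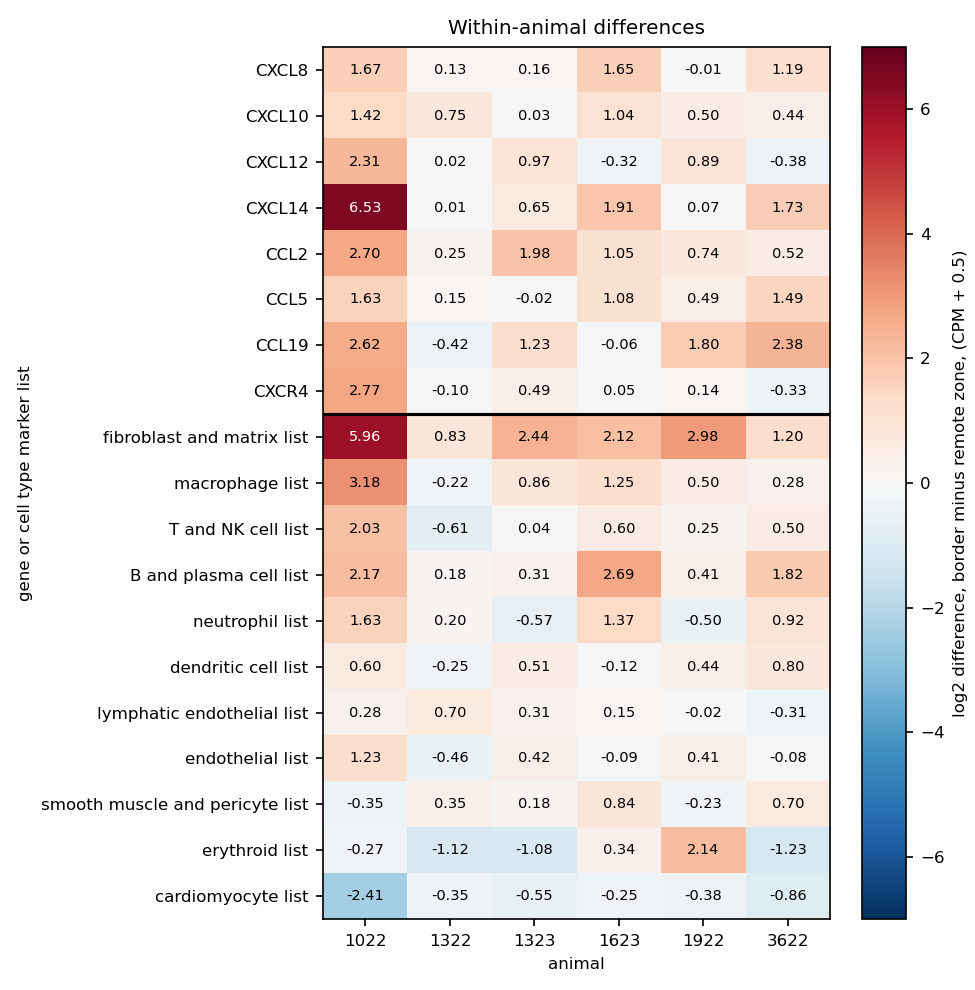
Difference of border minus remote zone in log2(CPM + 0.5) for 8 genes of the chemokine system (upper rows) and for the summed CPM of 11 marker lists (lower rows), in each of 6 animals. The column of animal 1022 holds the largest differences of CXCL14 (6.53), of the fibroblast and matrix list (5.96) and of the macrophage list (3.18), and in the column of animal 1322 CCL19, CXCR4 and the macrophage list lie below 0.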

How the data were processed

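Deposited values were raw counts of reads per gene that the authors made from poly(A)-enriched, nondirectional paired-end libraries with STAR on Sscrofa11.1 (Ensembl genes) and featureCounts. How reads shared between genes were assigned is not given in the sources used here, and reads of overlapping genes on opposite strands cannot be told apart. The main tool was edgeR 4.0.16 under R 4.3.3, DESeq2 1.42.0 served as an alternative, and sequences were read in Python 3.11.15. Genes were kept by filterByExpr, scaled by TMM, and border and remote zone were compared by the robust quasi-likelihood test with Benjamini-Hochberg adjustment over all 13844 genes tested and a threshold of 0.05. Standard errors are the log2 fold change over the square root of F. CPM used TMM library sizes, log2 values a pseudocount of 0.5, and likeness a prior count of 2. Symbols were paired with 15623 of 35682 identifiers.

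Named genes were the members, their receptors, listed genes past the threshold, up to 5 genes per list with 1 direction in 6 animals, and the 3 genes most like each tested member. The members and gene lists were chosen with earlier results of these data known. Border and remote libraries are paired, since the labels give both the number of their animal. Over genes, the r between their deviations from the region means averaged 0.35, the lowest being -0.03 (animal 1022) and the highest 0.57 (animal 1323). The block was kept as the alternative. The methods read here give no test of border against remote tissue, so the choice of the fit without it does not come from the study. Each value is 1 library. The p-values with region only rest on the spread between libraries of the same region, and that fit ignores the pairs. The p-values of the block fit and of the exact test rest on within-animal differences. Totals of 15130210 to 31618680 counts set the precision of the counts. The steps were tested on simulated data. Coordinates and sequences are RefSeq's on Sscrofa11.1. The values of 1 receptor and the upstream sequence of 1 ligand are not reported here.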

Additional observations from a re-analysis of the deposited data

Results flagged for a closer look

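For the genes named above and for the marker lists, the distance of each extreme library from the next one was divided by the range over the 6 libraries of that region. Chance sets apart about 1 in 20 such groups, and 5 of the 74 examined were set apart. CXCL14 in the 1022 border library (45.8 CPM, next 3.40 CPM) was separated by 0.701 of the range on the log2(CPM + 0.5) scale. CCL2 in the 3622 remote library (27.2 CPM, next 5.31 CPM) was separated by 0.692 of the range. MMP14 in the 1022 border library (588.3 CPM, next 115.7 CPM) was separated by 0.678, and TNFAIP3 in the 1322 remote library (3.88 CPM, the lowest, next 5.86 CPM) by 0.636. The summed CPM of the cardiomyocyte list in the 1022 border library (12606, the lowest, next 46248) was separated by 0.74 of the range.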

How the results depend on the processing

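Over all genes 287 passed the threshold (285 higher), against 41 with the animal as a replicate block, 1724 in the DESeq2 Wald test, 1551 with library totals only, 139 with no filter, 149 with at least 10 counts in every library, and 0 to 519 with each animal left out. DESeq2 size factors gave 212 in edgeR, and leaving out mitochondrial genes gave 254. Of the chemokine members 0 passed, also with the replicate block and in each fit without 1 animal (0 to 0), and 2 passed in the DESeq2 Wald test and 2 with library totals only (CXCL14 and CCL19). Of the other ligands 0 passed, against 2 in the DESeq2 Wald test, 1 with library totals only and 0 to 0 with each animal left out. Of the other receptors 3 passed, against 1 with the replicate block, 6 in the DESeq2 Wald test, 5 with library totals only and 0 to 3 with each animal left out. The block ended the calls of ACKR1, ACKR4, MMP2 and SDC1, changed no other call among the 25 genes compared under the alternatives, and took the fibroblast and matrix list from 9 calls to 1. The mean difference of CXCL8, 0.80, was 0.31 with a pseudocount of 2, 1.64 with a pseudocount of 0.1, 0.90 with CPM from library totals (exact permutation test, p = 0.031) and 0.62 to 0.96 with each animal left out, where the smallest possible p is 0.0625. For these 25 genes, 321 values under the alternatives were compared: 277 gave the same direction and call, 30 lost the call in the same direction (22 in fits without 1 animal), 14 gained one and 0 changed sign. Apart from fewer genes or samples in a fit, the cause was not tested. Low counts limit CXCL8, CXCR3, CXCR6, CCR7 and ACKR4.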
